A study of Mus musculus with 12 samples.

Results

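RNA levels of 10 listed BCL2 family genes were followed over the 12 arrays of a study that reprogrammed a mouse leukemia. The genes were taken by the gene symbol of the array platform's annotation, and the brightest probe set with that symbol alone was used for each. Of the 10, 9 had such a probe set among the 22180 genes tested, and Bax is not analysed here because no probe set carries its symbol in the annotation used. The survival genes measured were Bcl2, Bcl2l1, Mcl1 and Bcl2l2, and the death genes were Bak1, Bcl2l11, Bid, Bmf and Pmaip1. The series covers 4 stages with 3 arrays each: leukemia cells from the spleen of the NOTCH1 model, GFP+ colonies labelled as partially reprogrammed, GFP- colonies labelled as reprogrammed, and iPS cells (induced pluripotent stem cells) from established cultures. All groups carry the mouse genotype R26rtTA;Col1a12lox-4F2A, in which a doxycycline-controlled activator at the Rosa26 locus can switch on a cassette of the reprogramming factors Oct4, Sox2, Klf4 and c-Myc at the Col1a1 locus. The colonies and the iPS cells were derived from the leukemia cells, per the labels. The labels do not say what GFP marks or how NOTCH1 was activated, and all leukemia titles carry the same leukemia number. Per the titles, the 3 arrays of each stage are biological replicates, with no word on separate animals or cultures. The p-values rest on the spread among arrays within stages, pooled for each gene over all 4 stages. The spread of the colonies therefore enters every comparison. For Bcl2 the SD was 0.05 in leukemia cells and 1.73 in GFP- colonies, while the standard error was 0.65 in every comparison.

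BCL2 family proteins decide whether the outer membrane of mitochondria is opened during apoptosis. BCL2, BCL-XL (Bcl2l1), MCL1 and BCL-W (Bcl2l2) keep it closed, BAK (Bak1) and BAX form the pore that releases cytochrome c, and BH3-only proteins such as BIM (Bcl2l11), BID, BMF and NOXA (Pmaip1) either activate the pore formers or block the survival proteins. In lymphocytes and their leukemias, BCL2 and MCL1 hold BIM in check, and pluripotent stem cells are known for a low threshold for mitochondrial apoptosis.

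Values are log2 probe-set levels. They are compared between groups for the same gene and never between genes, because probe sets differ in brightness. Differences are log2 ± standard error from limma, fitted to all 12 arrays with 1 mean per group. A gene was called higher or lower where its p, adjusted by the Benjamini-Hochberg method over all 22180 genes, was under 0.05.

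The leukemia arrays were high in T lineage markers and the iPS arrays in pluripotency markers, while the colonies were uneven. All 12 measured T lineage markers were higher on every leukemia array than on any other array of the remaining groups, and all 13 measured pluripotency markers were higher on every iPS array than on every leukemia array. The leukemia arrays, from spleen, also carried markers of other blood cells. On each of them, 11 of 12 macrophage and granulocyte, all 6 B cell and all 3 erythroid markers were higher than on every iPS array. Cd68 was lower. The granulocyte marker Ngp averaged 11.09 in leukemia cells and 5.13 in iPS cells, and the B cell marker Ighm 10.77 and 6.69. The part of such cells in the differences from leukemia was not tested. Arrays of the same group correlated over all genes at 0.994 in leukemia cells, 0.937 to 0.975 in GFP+ colonies, 0.887 to 0.970 in GFP- colonies and 0.995 in iPS cells. GFP- replicate 1 stood apart with the lowest level of all 13 pluripotency markers and the highest of all 10 epithelial markers in its group. Its pluripotency mean of 6.57 lay below those of all GFP+ arrays (7.11 to 9.93), which goes against its label as reprogrammed, and Nanog, a core pluripotency gene, was at 5.07 there, close to the leukemia arrays (up to 4.99). None of the 13 pluripotency markers was higher on every GFP- array than on every GFP+ array. GFP+ replicate 3 had the highest level of all 10 pan-haematopoietic markers in its group. It also had the highest level of 10 of 12 macrophage and granulocyte markers there, with a mean of 8.08 against 6.19 and 6.01. Its T lineage mean was 6.45, against 6.07 and 5.80 on the other GFP+ arrays and 10.34 to 10.40 on the leukemia arrays. In whole-colony RNA, fewer cells of a type and less RNA per cell cannot be told apart.

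In iPS cells, RNA of Bcl2, Bcl2l11 and Bmf was lower than at 1 or more of the earlier stages. Bcl2 was 5.91-fold lower in iPS cells than in GFP+ colonies. The BIM gene Bcl2l11 was 1.88-fold lower in iPS cells than in leukemia cells. Bmf was lower in iPS cells than in each of the other groups, by 1.31-fold to 1.54-fold. Bcl2l1, the BCL-XL gene, was 2.25-fold higher in GFP+ colonies than in leukemia cells. No member was called between GFP- and GFP+ colonies, where 0% of all genes were called. The iPS cells also carried more RNA of fibroblast and feeder markers. Of 10 measured, 9 were higher on every iPS array than on every leukemia array, 7 than on every GFP+ array and 9 than on every GFP- array. Their mean log2 level was 7.90 to 8.02 on the iPS arrays, against 6.00 to 6.09 on the leukemia arrays, 6.25 to 7.14 on the GFP+ arrays and 6.15 to 6.51 on the GFP- arrays. Dcn, the gene of the matrix protein decorin, averaged 10.73 in iPS cells, against 4.77 in leukemia cells, 6.28 in GFP+ colonies and 5.61 in GFP- colonies. The list was not uniform. Thy1 went the other way against leukemia, at 7.13 in iPS cells and 10.44 in leukemia cells. Fn1 averaged 11.66 in iPS cells and was already at 11.27 in GFP+ and 11.20 in GFP- colonies. The part of fibroblast or feeder cells in the iPS differences was not tested.

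**Figure D1:**
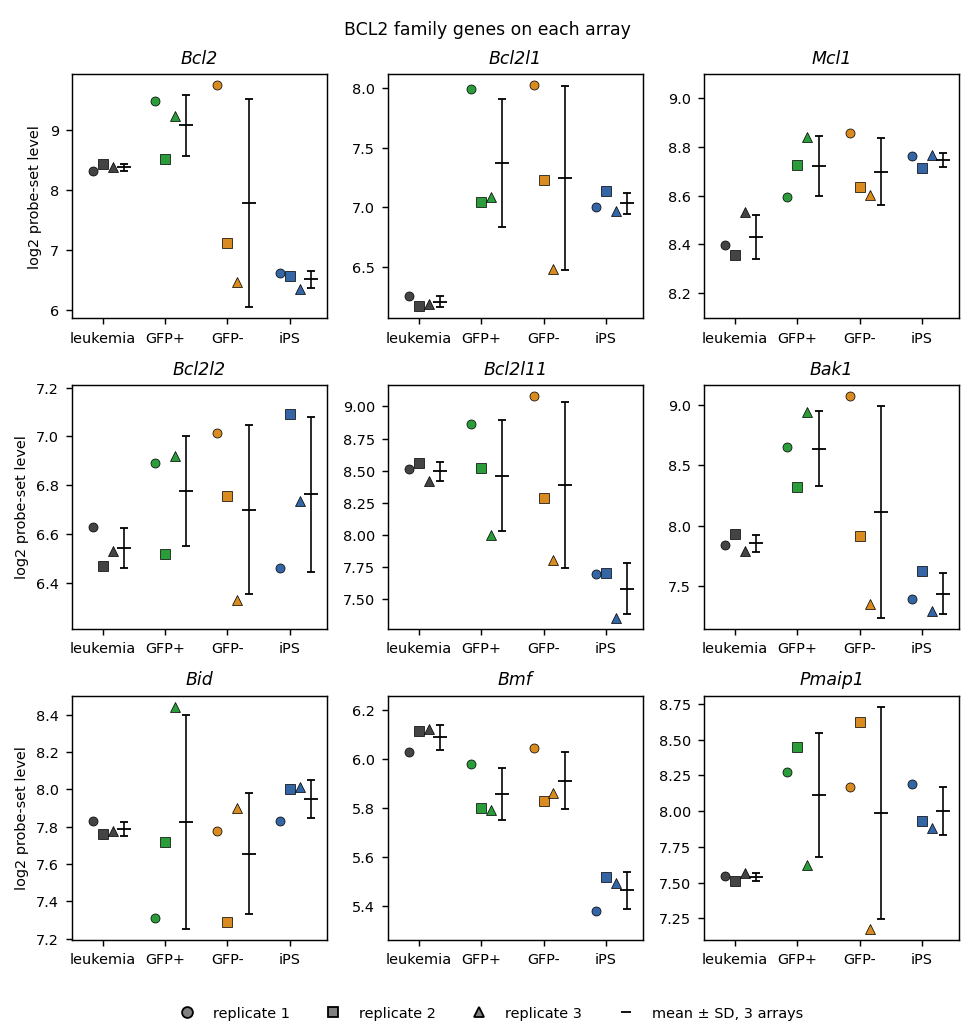
Log2 probe-set level (vertical axis) of the 9 measured BCL2 family genes on each array, by group; the marker shape gives the replicate, and bars give the mean ± SD of 3 arrays. The iPS arrays lie together at the low end for Bcl2 (6.36 to 6.63), Bcl2l11 and Bmf, and the GFP- arrays of Bcl2 spread from 6.48 to 9.75.

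Bcl2, the founding survival gene of the family, varied more between groups than any other member: its group means spanned 2.56 log2 units, and 4.73% of all genes spanned more. Its log2 levels were 8.33, 8.43 and 8.39 on leukemia replicates 1 to 3, 9.50, 8.52 and 9.23 on GFP+ replicates 1 to 3, 9.75, 7.13 and 6.48 on GFP- replicates 1 to 3, and 6.63, 6.57 and 6.36 on iPS replicates 1 to 3. All iPS arrays lay below all leukemia and GFP+ arrays, and the GFP- arrays reached from above the highest GFP+ array down into the iPS range. Bcl2 averaged 6.52 ± 0.14 in iPS cells and 9.08 ± 0.51 in GFP+ colonies (SD, n = 3 each), a difference of -2.56 ± 0.65 (95% interval -4.01 to -1.12, adjusted p = 0.0347). The call was lost without any leukemia array (adjusted p = 0.0570 to 0.0575), any iPS array (0.101 to 0.112), GFP+ replicate 1 (0.109) or GFP+ replicate 3 (0.0892), with differences from -2.36 to -2.62.

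Against the leukemia, Bcl2 differed by -1.87 ± 0.65 in iPS cells (95% interval -3.31 to -0.42), which missed the threshold at an adjusted p of 0.0625. In a fit of the 6 iPS and leukemia arrays alone, which leaves out the spread of the colonies, the same difference had a standard error of 0.09 and an adjusted p of 4.31e-07. In that fit 47.5% of all genes were called, against 24.3% in the fit of 12 arrays. Bcl2 differed from the leukemia by 0.70 ± 0.65 in GFP+ colonies (adjusted p = 0.511) and by -0.60 ± 0.65 in GFP- colonies (adjusted p = 0.577). In order of the means, GFP+ colonies came first, then leukemia cells, GFP- colonies and iPS cells, and no neighbours in this order differed past the threshold. The weaker second probe set of Bcl2, with a mean level of 4.45, showed no called difference in any comparison.

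The Bcl2 results of the GFP- group differed with and without replicate 1. Without it, Bcl2 was lower in GFP- colonies than in leukemia cells, with a difference of -1.58 (adjusted p = 0.00167), lower in GFP- than in GFP+ colonies, with a difference of -2.28 (adjusted p = 0.00335), and lower in iPS cells than in leukemia cells at an adjusted p of 0.000215. Without GFP- replicate 3, the iPS difference from leukemia had an adjusted p of 0.0269. With all arrays, GFP- colonies differed from GFP+ colonies by -1.30 ± 0.65 (adjusted p = 0.760), and iPS cells differed from GFP- colonies by -1.27 ± 0.65 (adjusted p = 0.313).

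Among the colonies, the Bcl2 level was ordered as the mean level of the 10 measured epithelial markers. That mean was 11.36, 10.95 and 11.26 on GFP+ replicates 1 to 3 and 11.61, 9.47 and 7.63 on GFP- replicates 1 to 3. Both Bcl2 and the epithelial mean were highest on GFP- replicate 1, followed by GFP+ replicates 1, 3 and 2, then by GFP- replicates 2 and 3. All 10 epithelial markers were lower on every iPS array than on every GFP+ array, with means of 8.23 to 8.27 in iPS cells. In leukemia cells the epithelial mean was 5.30 to 5.44 while Bcl2 was at 8.33 to 8.43, so this order did not extend to the leukemia. The pluripotency mean ran broadly the other way, at 8.70, 9.93 and 7.11 on GFP+ replicates 1 to 3 and at 6.57, 9.77 and 10.13 on GFP- replicates 1 to 3. Relations of 9 members with 3 marker lists, 27 in all, were computed after the data were seen and carry no test. Over the 6 colony arrays, rank correlations with the epithelial mean were 1 for Bcl2, 0.94 for Bak1 and 0.89 for Bcl2l2. They were 0.83 for Bcl2l1 and Bcl2l11, 0.43 for Mcl1 and Bmf, and 0.03 for Bid and Pmaip1. With the pluripotency mean, Bcl2l2 had -1 and Bcl2 -0.89. The part of these cell states in the Bcl2 levels was not tested.

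**Figure D2:**
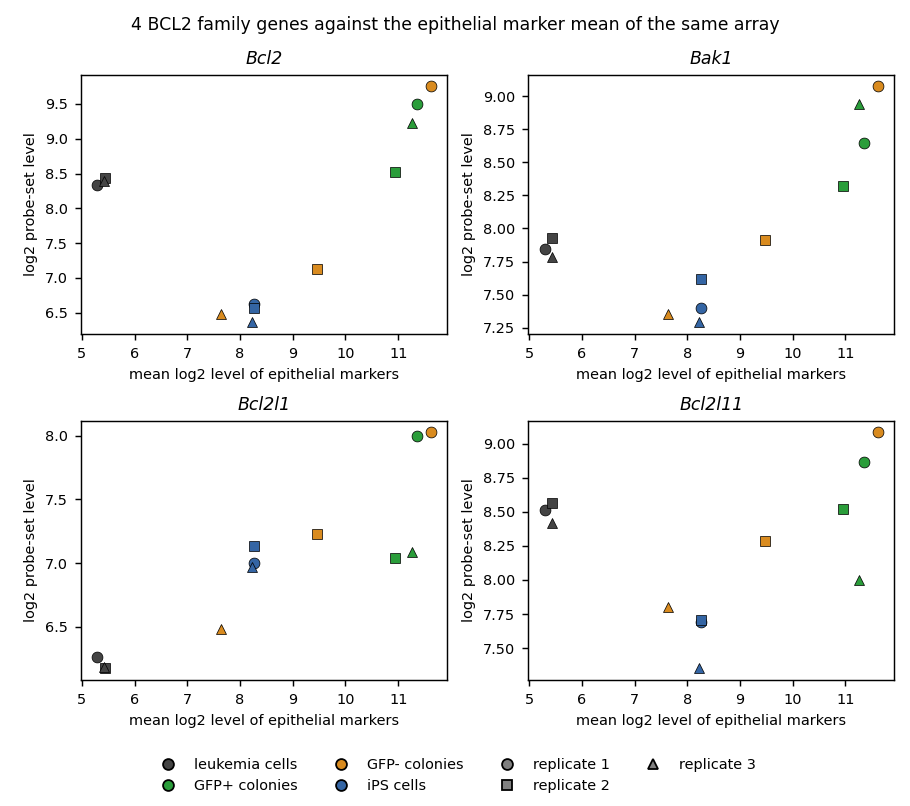
Log2 level of Bcl2, Bak1, Bcl2l1 and Bcl2l11 (vertical axes) against the mean log2 level of 10 epithelial markers on the same array (horizontal axis); colour gives the group and shape the replicate. For Bcl2, the 6 colony arrays climb from 6.48 to 9.75 as the epithelial mean goes up from 7.63 to 11.61, and the leukemia arrays lie apart at the low end of the marker axis with Bcl2 at 8.33 to 8.43.

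The promoter window of Bcl2 is shown because this gene moved most, with those of Bak1 and Bcl2l11, whose levels followed it most closely over the arrays. Each window reaches from 250 bases before the RefSeq start site to 50 bases after it in the mouse build GRCm38.p6, and is written 5′ to 3′ on the gene's strand. Capitals mark the letters of a GC box (GGGCGG) or of a forkhead core (GTAAACA) on either strand, and no matches overlap in these windows.
Bcl2, chr1:106714241-106714540, minus strand: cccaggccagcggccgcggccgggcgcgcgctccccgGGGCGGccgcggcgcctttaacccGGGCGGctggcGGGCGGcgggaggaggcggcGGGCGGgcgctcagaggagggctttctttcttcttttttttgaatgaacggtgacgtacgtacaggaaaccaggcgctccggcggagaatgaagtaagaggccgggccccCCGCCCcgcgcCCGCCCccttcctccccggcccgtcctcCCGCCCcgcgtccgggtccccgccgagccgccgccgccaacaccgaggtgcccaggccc
Bak1, chr17:27028578-27028877, minus strand: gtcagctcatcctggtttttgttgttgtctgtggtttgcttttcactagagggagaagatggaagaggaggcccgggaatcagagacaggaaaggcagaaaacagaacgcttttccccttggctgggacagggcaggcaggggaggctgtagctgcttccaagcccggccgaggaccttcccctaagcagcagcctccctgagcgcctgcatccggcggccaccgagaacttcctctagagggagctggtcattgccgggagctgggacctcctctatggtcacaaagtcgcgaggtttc
Bcl2l11, chr2:128125788-128126087, plus strand: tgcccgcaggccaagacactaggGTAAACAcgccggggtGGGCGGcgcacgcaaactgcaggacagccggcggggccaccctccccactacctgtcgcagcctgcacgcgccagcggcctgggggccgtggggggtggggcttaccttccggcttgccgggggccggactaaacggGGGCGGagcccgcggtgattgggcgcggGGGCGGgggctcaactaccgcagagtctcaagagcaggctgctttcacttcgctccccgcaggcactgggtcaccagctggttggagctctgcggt
The Bcl2 window held 7 GC boxes and 44 CG dinucleotides, more CG than 97.8% of the 32851 windows in the table, whose median was 7. The printed Bcl2l11 window held 3 GC boxes, 1 forkhead core and 27 CG dinucleotides. The table has another Bcl2l11 window, chr2:128127325-128127624, with 3 GC boxes, 0 forkhead cores and 38 CG dinucleotides. The Bak1 window held 11 CG dinucleotides and no match to either motif. A GC box was found in 35.7% of all windows, a forkhead core in 3.65% and an E-box (CACGTG), which none of the 3 windows held, in 7.15%. Letters in a window show no binding, and nothing follows from their absence.

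Bcl2l1, the BCL-XL gene, was lowest in the leukemia and lay above it on every colony and iPS array. Its log2 levels were 6.26, 6.17 and 6.18 on leukemia replicates 1 to 3, 8.0, 7.04 and 7.09 on GFP+ replicates, 8.03, 7.23 and 6.48 on GFP- replicates, and 7.0, 7.13 and 6.97 on iPS replicates. The colony arrays reached highest, and GFP- replicate 3 came closest to the leukemia. Bcl2l1 rose to 7.37 ± 0.54 in GFP+ colonies, against 6.21 ± 0.05 in leukemia cells (SD, n = 3 each), by 1.17 ± 0.35 (adjusted p = 0.0349). It differed from leukemia by 1.04 ± 0.35 in GFP- colonies (adjusted p = 0.0574) and by 0.83 ± 0.35 in iPS cells (adjusted p = 0.116), and the fit of the 6 iPS and leukemia arrays alone gave an adjusted p of 2.97e-05. The later stages did not differ from each other past the threshold. All 10 epithelial markers were also higher on every GFP+ array than on every leukemia array, and their part in the Bcl2l1 difference was not tested.

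These calls for Bcl2l1 lay close to the threshold. The GFP+ call was lost without any leukemia array (adjusted p = 0.0841 to 0.0962), any iPS array (0.0530 to 0.0536) or GFP+ replicate 1 (difference 0.86, adjusted p = 0.124). The GFP- difference was called without GFP+ replicate 1 (adjusted p = 0.0380) or GFP- replicate 3 (difference 1.42, adjusted p = 0.00725), and the iPS difference without GFP- replicate 1 (0.0316) or GFP- replicate 3 (0.0428).

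Mcl1, which encodes a short-lived survival protein that lymphocytes and stem cells depend on, was nearly level over the series. Its levels were 8.40, 8.36 and 8.53 on the leukemia arrays, 8.59, 8.72 and 8.84 on the GFP+ arrays, 8.85, 8.64 and 8.60 on the GFP- arrays, and 8.76, 8.71 and 8.76 on the iPS arrays. Every colony and iPS array lay above every leukemia array, though by little. The difference was 0.32 ± 0.11 in iPS cells (adjusted p = 0.0520), 0.29 ± 0.11 in GFP+ colonies (adjusted p = 0.0772) and 0.27 ± 0.11 in GFP- colonies (adjusted p = 0.102), each against leukemia cells. The iPS difference had an adjusted p of 0.0443 without GFP+ replicate 3, of 0.0305 without GFP- replicate 1 and of 0.0486 without GFP- replicate 3. The GFP+ difference had an adjusted p of 0.0463 without GFP- replicate 1. The group means of Mcl1 spanned 0.32, and 65.4% of all genes spanned more. A weaker second probe set of Mcl1, with a mean level of 5.89, showed no called difference in any comparison. Against leukemia it differed by -0.17 in GFP+ colonies, 0.10 in GFP- colonies and 0.02 in iPS cells.

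Bcl2l2, the gene of the survival protein BCL-W, showed no called difference in any comparison. It lay at 6.63, 6.47 and 6.53 on the leukemia arrays, 6.89, 6.52 and 6.92 on the GFP+ arrays, 7.02, 6.76 and 6.33 on the GFP- arrays, and 6.46, 7.09 and 6.73 on the iPS arrays. The groups overlapped throughout, and the iPS arrays alone covered 0.63 log2 units. The 95% interval of the difference between iPS and leukemia cells was -0.23 to 0.67.

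Among the death genes, Bak1, which encodes the pore former BAK, followed Bcl2 over the arrays. Its levels were 7.84, 7.93 and 7.79 on the leukemia arrays, 8.65, 8.32 and 8.94 on the GFP+ arrays, 9.07, 7.91 and 7.35 on the GFP- arrays, and 7.40, 7.62 and 7.29 on the iPS arrays. The GFP+ arrays all lay above the leukemia arrays and the iPS arrays all below them. The difference between iPS cells and GFP+ colonies was -1.20 ± 0.35 (95% interval -1.97 to -0.43, adjusted p = 0.0533), that between GFP+ colonies and leukemia cells 0.78 ± 0.35 (adjusted p = 0.143), and that between iPS and leukemia cells -0.42 ± 0.35 (adjusted p = 0.455). Bak1 was also highest on GFP- replicate 1 and lowest on GFP- replicate 3 among the colonies, as all 10 epithelial markers were within the GFP- group; their part in the Bak1 levels was not tested.

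Bak1 passed the threshold in several fits with fewer arrays. Without GFP- replicate 1 it was called higher in GFP+ colonies than in leukemia cells (adjusted p = 0.00906), lower in GFP- than in GFP+ colonies (-1.0, adjusted p = 0.0279) and lower in iPS cells than in GFP+ colonies (adjusted p = 0.00204). The last of these was also called without GFP- replicate 3 (adjusted p = 0.0184) or GFP+ replicate 2 (-1.36, adjusted p = 0.0454). In fits of only the 6 arrays compared, the adjusted p was 0.0190 between GFP+ colonies and leukemia cells, where 22.7% of all genes were called, 0.00777 between iPS and leukemia cells, and 0.0128 between iPS cells and GFP+ colonies, where 12.7% were called.

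Bcl2l11 encodes BIM, the BH3-only protein through which lymphocytes die when cytokine signals cease. Its levels were 8.51, 8.56 and 8.42 on the leukemia arrays, 8.86, 8.52 and 8.0 on the GFP+ arrays, 9.08, 8.29 and 7.80 on the GFP- arrays, and 7.69, 7.70 and 7.35 on the iPS arrays. The iPS arrays lay below all others, while the colonies overlapped the leukemia. Bcl2l11 fell to 7.58 ± 0.20 in iPS cells, against 8.50 ± 0.07 in leukemia cells (SD, n = 3 each), a difference of -0.91 ± 0.30 (adjusted p = 0.0474). It differed by -0.88 ± 0.30 between iPS cells and GFP+ colonies (adjusted p = 0.0867) and by -0.81 ± 0.30 between iPS cells and GFP- colonies (adjusted p = 0.167).

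The call for Bcl2l11 was lost without any leukemia array (adjusted p = 0.0985 to 0.125), any iPS array (0.0901 to 0.154), GFP+ replicate 2 (0.0601) or GFP- replicate 2 (0.0627), with differences from -0.80 to -0.97. The difference between iPS cells and GFP+ colonies was called without GFP- replicate 1 (adjusted p = 0.0159) or GFP- replicate 3 (0.0409), and that between iPS cells and GFP- colonies without GFP- replicate 3 (-1.10, adjusted p = 0.0402). The fit of the 6 iPS and leukemia arrays alone gave an adjusted p of 0.000134.

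Bmf, a BH3-only gene whose protein binds survival proteins, gave the most regular pattern of the family. Its levels were 6.03, 6.11 and 6.12 on the leukemia arrays, 5.98, 5.80 and 5.79 on the GFP+ arrays, 6.04, 5.83 and 5.86 on the GFP- arrays, and 5.38, 5.52 and 5.49 on the iPS arrays. All 3 iPS arrays lay below the other 9. Bmf averaged 5.46 ± 0.08 in iPS cells and 6.09 ± 0.05 in leukemia cells (SD, n = 3 each), a difference of -0.63 ± 0.10 (adjusted p = 0.00106) that stayed past the threshold whichever of the 12 arrays was left out. It also fell, with a difference of -0.39 ± 0.10 against GFP+ colonies (adjusted p = 0.0340) and of -0.45 ± 0.10 against GFP- colonies (adjusted p = 0.0340). These are small changes of a probe set whose mean level lay above that of 43.1% of all genes.

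The Bmf calls against the colonies lay near the threshold, and most fits without an array lost them. That against GFP+ colonies was lost without any leukemia array (adjusted p = 0.0551 to 0.0565), any iPS array (0.0870 to 0.126), GFP+ replicate 1 (0.109) or GFP+ replicate 3 (0.0576). That against GFP- colonies was lost without any leukemia array (adjusted p = 0.0582 to 0.0613), any iPS array (0.0929 to 0.142) or GFP- replicate 1 (0.0696). In fits of only the 6 arrays compared the adjusted p was 0.0615 against GFP+ colonies and 0.140 against GFP- colonies, where 0.857% of all genes were called.

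Bid links death receptors to mitochondria, since caspase-8 cleaves its protein into the active form. It showed no called difference, with levels of 7.83, 7.76 and 7.78 on the leukemia arrays, 7.31, 7.72 and 8.44 on the GFP+ arrays, 7.78, 7.29 and 7.90 on the GFP- arrays, and 7.83, 8.0 and 8.01 on the iPS arrays. Its highest array, GFP+ replicate 3, was also the colony array with the highest pan-haematopoietic mean, 8.62 against 6.15 to 7.08 on the other colonies and 10.23 to 10.26 in leukemia cells. Over the 6 colony arrays, the rank correlation of Bid with the pan-haematopoietic mean was 0.37. The part of blood cells in this Bid level was not tested.

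Pmaip1, the gene of the p53-induced BH3-only protein NOXA that targets MCL1, showed no called difference either. Its levels were 7.54, 7.51 and 7.57 on the leukemia arrays, 8.27, 8.45 and 7.62 on the GFP+ arrays, 8.17, 8.62 and 7.17 on the GFP- arrays, and 8.19, 7.93 and 7.88 on the iPS arrays. The GFP+ and iPS arrays lay above the leukemia arrays, and GFP- replicate 3 lay below them. The differences from leukemia were 0.57 ± 0.32 in GFP+ colonies (adjusted p = 0.249), 0.45 ± 0.32 in GFP- colonies (adjusted p = 0.373) and 0.46 ± 0.32 in iPS cells (adjusted p = 0.360). Without GFP- replicate 3 the GFP- difference was 0.86 (adjusted p = 0.0262).

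The differences of Bcl2l1 and Bcl2, both survival genes, and of the death gene Bcl2l11 and Bcl2 were taken within each array and set to 0 at the leukemia mean. Bcl2l1 minus Bcl2 stood at 0.68, 0.70 and 0.03 on GFP+ replicates 1 to 3, at 0.45, 2.28 and 2.18 on GFP- replicates and at 2.55, 2.74 and 2.79 on iPS replicates. The iPS cells were shifted from Bcl2 towards Bcl2l1 by 6.47-fold on average relative to the leukemia, and the GFP- arrays fell into a low replicate 1 and replicates 2 and 3 near the iPS arrays. Bcl2l11 minus Bcl2 stood at -0.75, -0.11 and -1.34 on the GFP+ arrays, at -0.78, 1.05 and 1.21 on the GFP- arrays, and at 0.96, 1.02 and 0.88 on the iPS arrays. The iPS cells had less RNA of both BIM and BCL2 genes than the leukemia on average, with the larger difference in Bcl2. These pairs were chosen after their values were seen and carry no test.

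**Figure D3:**
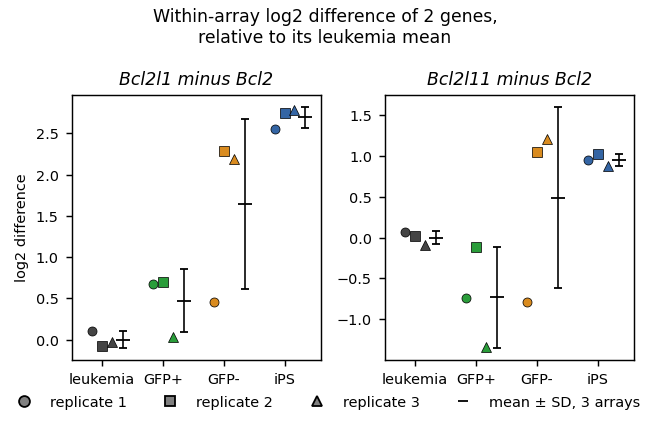
Within-array log2 difference of Bcl2l1 and Bcl2 (left) and of Bcl2l11 and Bcl2 (right), relative to its leukemia mean (vertical axis), for each array by group; bars give the mean ± SD of 3 arrays. For Bcl2l1 minus Bcl2, the iPS arrays lie at 2.55 to 2.79 and the GFP+ arrays at 0.03 to 0.70, and the GFP- arrays are split.

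Counted by comparison, few members were called. Between GFP+ colonies and leukemia cells 1 of 9 members was called, higher, where 21.9% of all genes were called, 9.60% higher and 12.3% lower. Between GFP- colonies and leukemia cells 0 of 9 were called, where 21.0% of all genes were, 9.02% of all genes as higher. An unadjusted p under 0.05 was reached there by 2 members, Bcl2l1 and Mcl1, and by 32.8% of all genes. Between iPS and leukemia cells 0 members were higher and 2 lower, where 24.3% of all genes were called, 12.4% higher and 11.9% lower. An unadjusted p under 0.05 was reached by 5 members, Bcl2l1 and Mcl1 as higher and Bcl2, Bcl2l11 and Bmf as lower, and by 34.7% of all genes. Between GFP- and GFP+ colonies 0 members were called, as were 0% of all genes in limma, while 1413 genes (6.37%) had an unadjusted p under 0.05 and none of them was a member. Between iPS cells and GFP+ colonies 2 members were lower, where 10.4% of all genes were called, 6.15% higher and 4.23% lower. Between iPS cells and GFP- colonies 1 member was lower, where 4.25% of all genes were called, 2.94% higher and 1.32% lower.

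The arrays of the groups did not overlap for 6 of 9 members between GFP+ colonies and leukemia cells (41.9% of all genes), 2 between GFP- colonies and leukemia cells (37.2%) and 7 between iPS and leukemia cells (56.5%). The counts were 0 between GFP- and GFP+ colonies (6.53%), 4 between iPS cells and GFP+ colonies (38.1%) and 2 between iPS cells and GFP- colonies (27.1%). The median difference of the members was 0.29, 0.16 and 0.16 for GFP+ colonies, GFP- colonies and iPS cells against leukemia, beside -0.04, -0.01 and -0.03 over all genes. It was -0.34 for iPS cells against GFP+ colonies and -0.21 against GFP- colonies, beside 0.01 and -0.02 over all genes. In the fit of the 6 iPS and leukemia arrays alone, 3 members were higher (Bcl2l1, Mcl1 and Pmaip1) and 4 lower (Bcl2, Bcl2l11, Bak1 and Bmf), where 24.5% of all genes were higher and 22.9% lower.

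**Figure D4:**
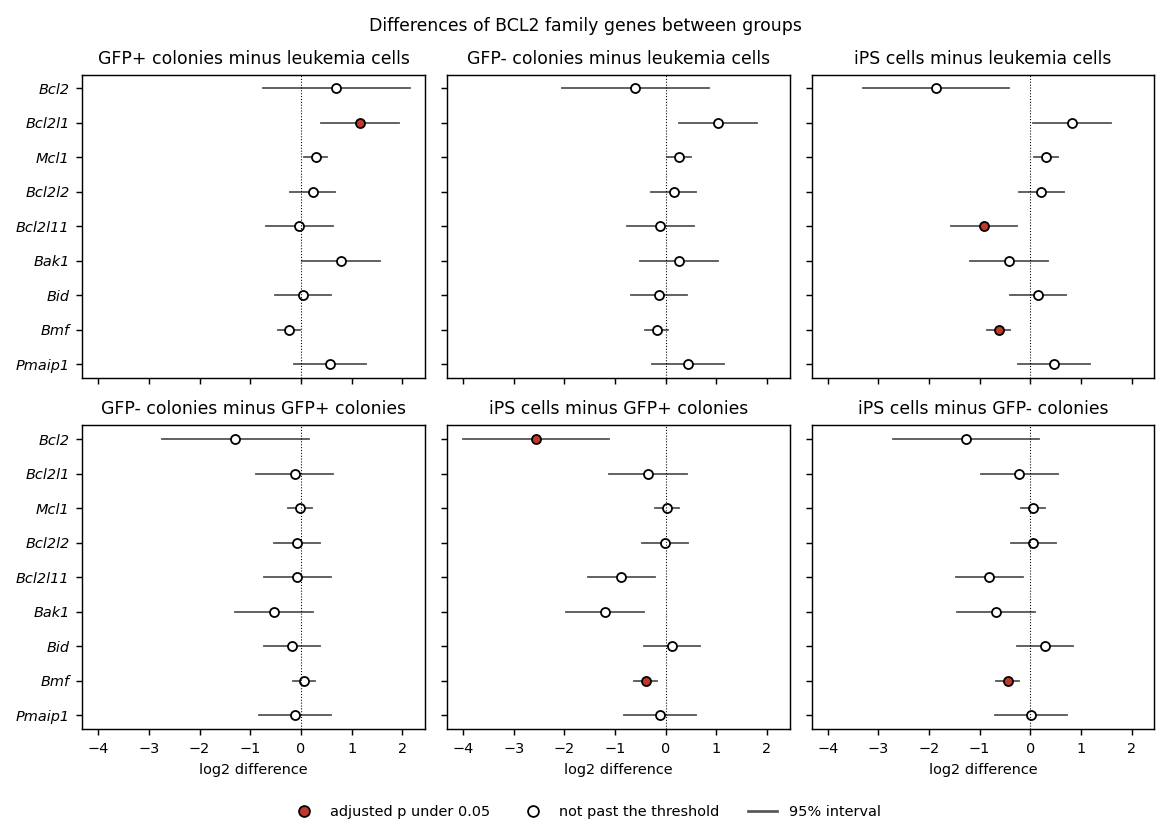
Log2 difference between groups (horizontal axis) of each measured member in the 6 comparisons, with the 95% interval from limma; filled points passed an adjusted p under 0.05. Bmf is filled in all 3 comparisons of iPS cells, and the widest intervals are those of Bcl2.

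The scaling of the arrays moved the shares of all genes called higher. Setting every array to the same median lowered the median difference over all genes by 0.11 between GFP+ colonies and leukemia cells and between iPS and leukemia cells. Calls that were higher then made up 31.2% instead of 43.9% between GFP+ colonies and leukemia cells, and 37.4% instead of 51.1% between iPS and leukemia cells. Cyclic loess gave 52.6% between GFP+ colonies and leukemia cells, 46.0% instead of 59.2% between iPS cells and GFP+ colonies, and 58.8% instead of 69.0% between iPS cells and GFP- colonies. The 6 member calls above were made under both scalings.

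Over the 12 arrays the levels of Bcl2 and Bak1 had a Pearson correlation of 0.910, those of Bcl2 and Bcl2l11 of 0.855, and those of Bcl2l11 and Bmf of 0.811, and the lowest was -0.57 between Mcl1 and Bmf. These are descriptions of arrays that share group differences. For members whose group means spanned at least 1 log2 unit, the most similar profiles were sought among 4714 genes with as wide a span. For Bcl2 they were Dip2b (0.988) and Synj1, a phosphoinositide phosphatase gene (0.984). For Bcl2l1 they were Phldb2 (0.976) and Samd4 (0.971), and for Bak1 the SNARE gene Vamp8 (0.988) and the adaptor gene Gab2 (0.987).

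Of 12 other BCL2 family genes measured, 2 were higher and 0 lower in GFP+ colonies than in leukemia cells, 2 and 0 in GFP- colonies, and 2 and 1 in iPS cells. Bok, which encodes a pore-forming relative of BAX and BAK, rose by 2.16 ± 0.43 in GFP+ colonies (adjusted p = 0.00454) and by 1.58 ± 0.43 in GFP- colonies (adjusted p = 0.0234) against leukemia. Its levels were 9.11, 8.82 and 9.87 in GFP+ colonies and 9.81, 8.43 and 7.82 in GFP- colonies, against 7.12, 7.31 and 6.89 in leukemia cells. The GFP- call of Bok was lost without any leukemia array (adjusted p = 0.0527 to 0.0841). Bnip3, a hypoxia-induced gene of a mitophagy receptor, rose by 1.38 ± 0.13 in GFP- colonies against leukemia (adjusted p = 2.85e-05) and fell, with a difference of -0.96 ± 0.13 in iPS cells against GFP- colonies (adjusted p = 0.00374), whichever array was left out.

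In iPS cells, Bcl2l14, a distant family member, rose by 0.76 ± 0.12 against leukemia (adjusted p = 0.000886), by 0.48 ± 0.12 against GFP+ colonies (adjusted p = 0.0319) and by 0.58 ± 0.12 against GFP- colonies (adjusted p = 0.0233). The call against GFP+ colonies was lost without any leukemia array (0.0506 to 0.0541), any iPS array (0.0818 to 0.115) or GFP+ replicate 3 (0.0933), and that against GFP- colonies without any iPS array (0.0753 to 0.106) or GFP- replicate 2 (0.0613). Bcl2l13, the gene of another mitophagy receptor, fell, with a difference of -0.59 ± 0.15 in iPS cells against leukemia (adjusted p = 0.0128), and missed the threshold without leukemia replicate 2 (0.0583) or iPS replicate 2 (0.0546). In the list, 1 gene was higher and 0 were lower in iPS cells than in GFP+ colonies, and 1 and 1 in iPS cells against GFP- colonies. Of all genes, 6.15% were higher and 4.23% lower in the former comparison, and 2.94% and 1.32% in the latter, for this list and those that follow. The list's median differences against leukemia were 0.20 in GFP+ colonies, 0.17 in GFP- colonies and 0.13 in iPS cells.

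Downstream of the mitochondria, 13 genes of the caspase pathway and its inhibitors were measured. Against leukemia, 0 were higher and 1 lower in GFP+ colonies, 1 and 1 in GFP- colonies, and 0 and 2 in iPS cells, with medians of -0.35, -0.27 and -0.11. Cycs, the cytochrome c gene, fell, with a difference of -0.63 ± 0.10 in GFP+ colonies (adjusted p = 0.000901) and of -0.46 ± 0.10 in GFP- colonies (adjusted p = 0.00609). Birc3, which encodes a ubiquitin ligase of the inhibitor-of-apoptosis family, fell to 6.87 ± 0.07 in iPS cells, against 8.20 ± 0.06 in leukemia cells (adjusted p = 0.00603). Birc5, the survivin gene, which also serves cell division, rose by 1.22 ± 0.29 in iPS cells against GFP+ colonies (adjusted p = 0.0287), where 2 genes of the list were higher and 0 lower. This call was lost without any iPS array (0.0890 to 0.0973), GFP+ replicate 1 (0.0980) or GFP+ replicate 3 (0.0788).

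Xiap, the gene of a direct caspase inhibitor, had its highest mean in GFP- colonies, with calls on both sides. It rose by 0.34 ± 0.10 in GFP- colonies against leukemia (adjusted p = 0.0351) and fell, with a difference of -0.45 ± 0.10 in iPS cells against GFP- colonies (adjusted p = 0.0332), the only gene of the list called there. The rise was lost without any leukemia or GFP- array or iPS replicate 1 (0.0529 to 0.124), and the fall without any leukemia or iPS array or GFP- replicates 1 or 2 (0.0553 to 0.139).

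Of 10 death receptor genes measured, 1 was higher and 0 lower in GFP+ colonies than in leukemia cells, 1 and 2 in GFP- colonies, and 1 and 3 in iPS cells. Tnfrsf10b, the mouse receptor of the death ligand TRAIL, was the gene that was higher in each. It stood at 9.13 ± 0.41 in GFP+ colonies, 9.75 ± 0.42 in GFP- colonies and 9.27 ± 0.02 in iPS cells, against 6.34 ± 0.13 in leukemia cells (SD, n = 3 each). These rises were 6.92-fold, 10.6-fold and 7.58-fold, with adjusted p of 1.1e-05, 2.31e-06 and 6.95e-06, and each was called whichever of the 12 arrays was left out. The TRAIL gene itself, Tnfsf10, fell, with a difference of -1.85 ± 0.45 in GFP- colonies against leukemia (adjusted p = 0.0134), which missed the threshold without leukemia replicate 2 (0.0534).

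Casp8, the initiator caspase that cleaves BID, fell in iPS cells, with a difference of -2.74 ± 0.83 against leukemia (adjusted p = 0.0357) and of -3.15 ± 0.83 against GFP+ colonies (adjusted p = 0.0394), where it was the only gene of the list called. It lay at 6.23, 6.26 and 6.29 on the iPS arrays, against 9.04, 8.96 and 8.99 on the leukemia arrays and 9.29, 9.05 and 9.88 on the GFP+ arrays. The GFP- arrays, at 9.94, 8.13 and 5.40, included both the highest and the lowest of the 12 levels. The call against leukemia was lost without any leukemia or iPS array or GFP+ replicate 1 (0.0502 to 0.0936), and that against GFP+ colonies without any leukemia or iPS array, GFP+ replicates 1 or 3 or GFP- replicate 2 (0.0524 to 0.117). No gene of the list was called between iPS cells and GFP- colonies. The list's medians against leukemia were 0.00, -0.27 and -0.46 in GFP+ colonies, GFP- colonies and iPS cells.

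Of 12 regulators of the family measured, 0 were higher and 2 lower in GFP+ colonies than in leukemia cells, 1 and 2 in GFP- colonies, and 1 and 2 in iPS cells, with medians of 0.30, 0.39 and 0.11. Ddit3 encodes CHOP, a stress factor known to raise Bcl2l11 transcription. It fell to 7.47 ± 0.22 in iPS cells, against 9.17 ± 0.05 in leukemia cells, 8.66 ± 0.30 in GFP+ colonies and 8.50 ± 0.10 in GFP- colonies (SD, n = 3 each). The differences were -1.70 ± 0.16 (adjusted p = 2.77e-05), -1.19 ± 0.16 (adjusted p = 0.00307) and -1.02 ± 0.16 (adjusted p = 0.00781), held whichever of the 12 arrays was left out, and were the only calls of the list in the comparisons of iPS cells with the colonies.

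Pim1, which encodes a kinase that inactivates BAD, fell, with a difference of -0.73 ± 0.19 in GFP+ colonies (adjusted p = 0.0172) and of -0.87 ± 0.19 in GFP- colonies (adjusted p = 0.00736) against leukemia. With the mean of all probe sets of the gene these adjusted p were 0.122 and 0.239, and the GFP+ call was also lost without any leukemia array or GFP+ replicate 3 (0.0502 to 0.0586). Usp9x, a deubiquitinase gene whose protein stabilises MCL1, rose by 1.41 ± 0.39 in GFP- colonies against leukemia (adjusted p = 0.0262), lost without any leukemia array or GFP- replicates 2 or 3 (0.0712 to 0.0807). Mdm2, the gene of the ubiquitin ligase of p53, rose by 0.68 ± 0.19 in iPS cells against leukemia (adjusted p = 0.0221), lost without any iPS array or leukemia replicates 1 or 3 (0.0592 to 0.0759). In none of the 4 lists was a gene called between GFP- and GFP+ colonies, where 0% of all genes were called.

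**Figure D5:**
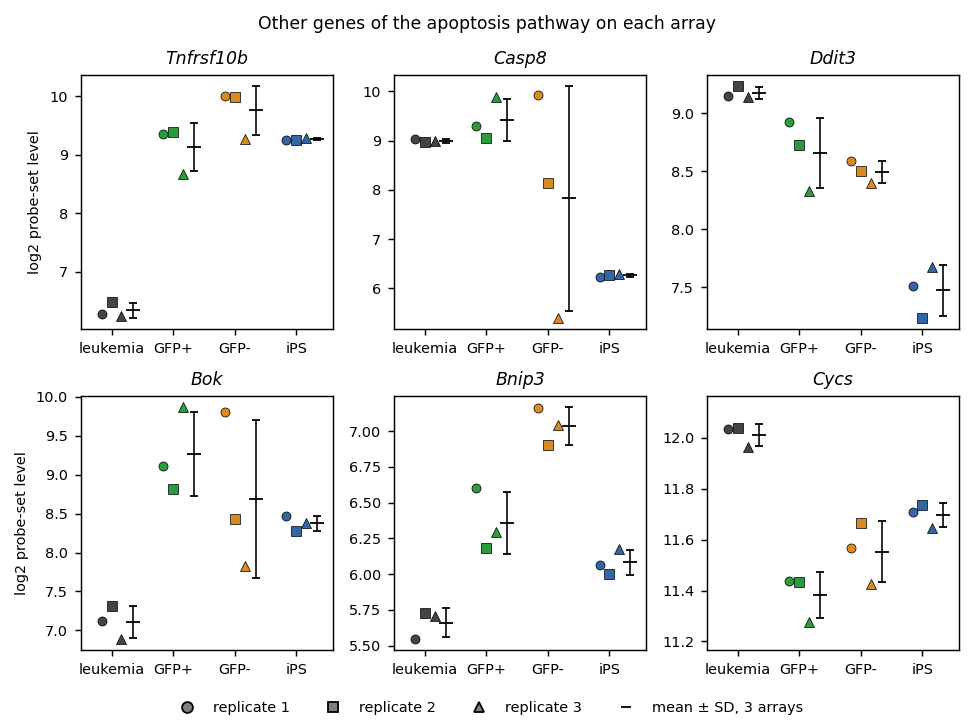
Log2 probe-set level (vertical axis) of 6 other genes of the apoptosis pathway on each array, by group; marker shape gives the replicate and bars the mean ± SD of 3 arrays. Tnfrsf10b lies at 8.66 or above on the colony and iPS arrays and at 6.25 to 6.49 on the leukemia arrays, and Casp8 spreads from 5.40 to 9.94 over the GFP- arrays.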

How the data were processed

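RNA was extracted with Trizol and labelled with biotin for Affymetrix arrays, per the labels' protocols. The table that the authors deposited holds log2 levels from RMA, per the submitters' processing notes, with a value for each probe set on each array. The version of RMA, any filter and the genome build were not given in the labels or file headers. RMA makes array distributions alike, so a change of most genes in a single direction would be removed. Array medians lay at 5.76 to 5.82 on the log2 scale. Detection values were not used, which leaves signal over background unknown, and precision is limited by 3 arrays a group.

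Of 41345 probe sets, 23521 had 1 gene symbol in the platform annotation, 1814 several and 16010 none, and the brightest probe set of each symbol left 22180 genes. Entrez identifiers of 21994 of them were in the RefSeq table, where 0 symbols differed. Bcl2 and Mcl1 had another, dimmer probe set. In R 4.3.3, limma 3.58.1 (lmFit, eBayes) was run on all 12 arrays together, giving each group its own mean. It gave 6 comparisons, adjusted with the Benjamini-Hochberg method over all genes. The steps were tested on simulated data for iPS against leukemia cells. There, few genes were changed, in the iPS group alone, with independent normal noise of each group's measured spread. In the real comparison 24.3% of genes were called in the fit of 12 arrays and 47.5% in that of 6. The simulated rates therefore cannot be carried over to these data. In the simulation the fit of 12 arrays called 64% of log2 changes of 1 and 90% of log2 changes of 2, with 2 false calls. The fit of only the 6 arrays compared called 94% and 100%, with 15 false calls.

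The members, the 4 lists of other pathway genes and the 9 marker lists were chosen with earlier results of these data known. All members were reported in every comparison, and from each other list the largest called increase and decrease. Similar genes were the 2 with the highest correlation among genes whose group means span at least 1 log2 unit. Alternatives were cyclic loess, equal array medians, genes above the median level, only the 6 arrays compared, array weights, a variance prior with an intensity trend, the mean of all probe sets, the replicate number as a block, and arrays left out. Promoter windows came from the RefSeq table of GRCm38.p6. Windows on chr18 were left out for the listed genes, which gave 14 windows of 9 of the 10, without Pmaip1.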

Additional observations from a re-analysis of the deposited data

How the results depend on the processing

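Array weights gave 2 members higher in GFP+ colonies, 2 higher and 1 lower in GFP- colonies and 3 higher and 4 lower in iPS cells, each against leukemia, and 4 lower in iPS cells than in GFP+ colonies. Calls of all genes, in either direction, rose as well from equal weights to array weights. Against leukemia they went from 4848 to 7153 in GFP+ colonies, from 4655 to 7120 in GFP- colonies and from 5395 to 10367 in iPS cells. They went from 0 to 13 between GFP- and GFP+ colonies. For iPS cells they went from 2304 to 5645 against GFP+ colonies and from 943 to 2484 against GFP- colonies. With GFP+ replicate 3 and GFP- replicate 1 both left out, 2 members were higher in GFP+ colonies, 1 lower in GFP- colonies and 2 higher in iPS cells, each against leukemia, with 2 lower in GFP- than in GFP+ colonies and 4 lower in iPS cells than in GFP+ colonies. Bcl2l11 and Bmf stayed lower in iPS cells than in leukemia cells in this fit. Apart from fits without a single array, Bcl2l11 did so in all 9 alternatives and Bmf in all 8 that held it. The genes called in either direction then rose to 7230 from 4848 between GFP+ colonies and leukemia cells and to 7296 from 4655 between GFP- colonies and leukemia cells. They were 1049 between GFP- and GFP+ colonies, 4535 between iPS cells and GFP+ colonies and 2222 between iPS cells and GFP- colonies. In fits of only the 6 arrays compared, 2 members were higher in GFP+ colonies and 3 higher and 4 lower in iPS cells against leukemia, and 0 lower in iPS cells than in GFP- colonies, with 10525 genes called between iPS and leukemia cells and 190 between iPS cells and GFP- colonies. Cyclic loess gave 2 members higher in GFP+ colonies and 1 in GFP- colonies against leukemia, where 2472 and 2278 of all genes were higher. Equal array medians gave 1 member lower in GFP+ colonies than in leukemia cells, where 4056 of all genes were lower. Restricting the fit to genes above the median level gave 1 member higher in GFP- colonies and 1 in iPS cells against leukemia, and 0 lower in iPS cells than in GFP- colonies, since Bmf was not among the genes kept. With the replicate number as a block, 1 member was higher in GFP- colonies than in leukemia cells (Bcl2l1, adjusted p = 0.0345) and 0 were lower in iPS cells than in GFP- colonies (Bmf, 0.0674). Between iPS cells and GFP+ colonies the block added Bcl2l11 (0.0400) and dropped Bmf (0.0599), and it changed no other member call. Of the other pathway genes it dropped Xiap in GFP- colonies against leukemia (0.0513) and in iPS cells against GFP- colonies (0.0552), Casp8 (0.0544) and Apaf1 (0.0744) in iPS cells against GFP+ colonies, and Ddit3 in GFP+ colonies against leukemia (0.0579). The numbers were not used to pair arrays, since the deviations of same-numbered arrays correlated over 0.1 in 2 of 18 pairs (-0.38 to 0.32). Unless stated, the cause of these shifts was not tested.

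Uncalled differences changed sign as follows. With both of these colony arrays left out, the difference from leukemia was 0.20 for Bcl2l11 and -0.27 for Bid in GFP+ colonies, and -0.22 for Bak1 and -0.0011 for Bcl2l2 in GFP- colonies. The difference between GFP- and GFP+ colonies was then -0.045 for Bmf and 0.079 for Bid, that of iPS cells from GFP+ colonies 0.057 for Bcl2l2, and that from GFP- colonies 0.18 for Bcl2l1. With array weights it was 0.13 for Bcl2l11 and -0.17 for Bid in GFP+ colonies against leukemia, -0.045 for Bmf and 0.086 for Pmaip1 in GFP- against GFP+ colonies, and -0.29 for Pmaip1 in iPS cells against GFP- colonies. With cyclic loess it was 0.069 for Bcl2l11 in GFP+ colonies against leukemia, -0.11 for Mcl1 in iPS cells against GFP+ colonies, and -0.059 for Mcl1, -0.0014 for Bcl2l2 and -0.081 for Pmaip1 in iPS cells against GFP- colonies. With equal array medians it was -0.073 for Bid in GFP+ colonies against leukemia, 0.016 for Mcl1 in GFP- against GFP+ colonies and -0.028 for Pmaip1 in iPS cells against GFP- colonies. With the mean of all probe sets Mcl1 differed by 0.12 between GFP- and GFP+ colonies and by -0.016 between iPS cells and GFP- colonies.

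Leaving out each array in turn gave 0 to 3 members higher in GFP+ colonies, 0 to 2 higher and 0 to 1 lower in GFP- colonies, and 0 to 2 higher and 1 to 3 lower in iPS cells, each against leukemia. It gave 0 to 2 lower in GFP- than in GFP+ colonies, 0 to 4 lower in iPS cells than in GFP+ colonies and 0 to 2 lower in iPS cells than in GFP- colonies. All genes called against leukemia then ranged from 3407 to 6519 in GFP+ colonies, from 3267 to 6033 in GFP- colonies and from 3900 to 6865 in iPS cells. The 3 members higher in GFP+ colonies came with 6519 genes called, without GFP- replicate 1. The genes called ranged from 0 to 1019 between GFP- and GFP+ colonies (1019 without GFP- replicate 1), from 597 to 4808 between iPS cells and GFP+ colonies and from 251 to 1755 between iPS cells and GFP- colonies. Against leukemia, Bcl2l11 ranged from -0.24 to 0.20 and Bid from -0.27 to 0.29 in GFP+ colonies. In GFP- colonies Bcl2 ranged from -1.58 to 0.056, Bcl2l2 from -0.0011 to 0.34, Bcl2l11 from -0.45 to 0.19, Bak1 from -0.22 to 0.64 and Bid from -0.26 to 0.049. Between GFP- and GFP+ colonies Bcl2l1 ranged from -0.52 to 0.25, Mcl1 from -0.10 to 0.038, Bcl2l2 from -0.23 to 0.11, Bcl2l11 from -0.42 to 0.22, Bid from -0.43 to 0.14, Bmf from -0.012 to 0.12 and Pmaip1 from -0.44 to 0.28. Between iPS cells and GFP+ colonies Mcl1 ranged from -0.036 to 0.087, Bcl2l2 from -0.18 to 0.14, Bid from -0.13 to 0.43 and Pmaip1 from -0.36 to 0.054. Between iPS cells and GFP- colonies Bcl2l1 ranged from -0.60 to 0.18, Bcl2l2 from -0.12 to 0.22 and Pmaip1 from -0.39 to 0.33.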
